A study of Danio rerio with 6 samples.

Results

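The mitochondrial respiratory chain was examined through the genes of the nucleus that encode its subunits. The members are the symbols in the deposited count table that start with nduf, sdh followed by a letter from a to d, uqcr, cox4, cox5, cox6, cox7, cox8 or atp5. They numbered 95 of 15419 symbols. By the role of each protein, 36 were placed with complex I, 5 with complex II, 8 with complex III, 19 with complex IV and 19 with complex V. Most of these encode subunits. *atp5if1a* and *atp5if1b*, counted with complex V, encode inhibitory factors, and *cox7a2l*, counted with complex IV, encodes a protein related to subunit 7A. The prefixes also took in 8 assembly factors, which help to build complexes I and II but stay out of them. Symbols, and not expression values, picked out the members, and roles only sorted them, though the choice was made with earlier results of these data known.

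Germ-free (GF) zebrafish larvae of 2 genotypes were compared at 5 days post-fertilization (dpf), il26KO GF with 3 libraries and WT GF with 3 libraries. il26KO larvae (*il26*-/-) come from a line made with CRISPR/Cas9 against the gene for the cytokine IL-26, and the WT parents were clutchmates of the mutant parents that were kept in other tanks. All larvae of both groups were made germ-free by bleaching the eggs and were raised in sterile medium with 4 antibiotics. Each library is a pool of 10 to 15 dissected guts. In such bulk samples, fewer cells of a type and less RNA per cell cannot be told apart, and nothing in the labels says whether libraries came from separate clutches, so p-values measure only the spread between these pools.

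Total counts ran from 7528412 to 38143258 in il26KO GF and from 21188195 to 29399034 in WT GF. *il26* itself had 0 counts in all 6 libraries and gives no check of the genotypes. Of 22 enterocyte markers, 18 were in the table and all 18 passed the filter on low counts. One of them, *fabp2*, had only between 6 and 19 counts in each library. Levels are CPM, the counts of a gene relative to the size of its library, after scaling by the trimmed mean of M values (TMM) and are not corrected for gene length, so they are compared for one gene across libraries and not between genes.

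The respiratory chain passes electrons from NADH (complex I) and succinate (complex II) through ubiquinone, complex III and cytochrome c to oxygen at complex IV, and complex V, the ATP synthase, uses the resulting proton gradient to make ATP. Most subunits are encoded in the nucleus, made in the cytosol and imported, and a few are encoded by mitochondrial DNA. Absorptive enterocytes depend on this machinery for the ion gradients that drive nutrient uptake. Several subunits of complex IV exist as isoforms, and in mammals one isoform of subunits 6A and 7A is used mainly in heart and skeletal muscle.

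No member differed between il26KO GF and WT GF at an adjusted p-value under 0.05 (quasi-likelihood test of edgeR, adjusted by Benjamini-Hochberg over the 11062 genes that were tested, smallest adjusted p = 1.00). The standard error of a log2 fold change is abbreviated SE. The filter of edgeR on low counts left 82 of the 95 members. Without adjustment, 0 of these 82 were higher and 0 lower in il26KO GF at a p-value under 0.05, where 3.06% of all genes tested were higher and 2.27% lower, and DESeq2's test also gave 0 and 0. Over all genes 0.00904% passed the adjustment. The smallest unadjusted p-value among members was 0.123, for *sdhaf3*. For 0 of the 82 were all il26KO GF libraries above all WT GF libraries, or all below, against 4.81% and 4.83% of all genes tested.

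Single libraries and the pairing by number moved the unadjusted count. With the replicate number as a block, 3 members were lower at an unadjusted p-value under 0.05 (*sdhaf3*, *ndufs3* and *uqcrc2b*), where 3.34% of all genes tested were lower, and their adjusted p-values from edgeR lay between 0.652 and 0.698. Without WT GF replicate 3, 7 members were lower (*cox5aa*, *ndufa6*, *ndufaf5*, *atp5if1a*, *ndufv2*, *sdha* and *uqcrc2a*), where 4.34% of all genes tested were lower, with a smallest adjusted p of 0.379.

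Log2 fold changes of the 82 members, il26KO GF over WT GF, lay between -0.31 and 0.22, with a median of -0.088, where the median of all genes tested was -0.0011. The 95% interval lay inside 1.5-fold in either direction for 73 members and inside 2-fold for all 82. The other 9 were *ndufaf2*, *sdhaf3*, *ndufab1a*, *ndufv2*, *ndufs3*, *cox5b2*, *cox6a2*, *cox7a2a* and *atp5mc1*. The point estimate was below 0 for 70 members, where 50.4% of all genes tested were below 0. This count varied with the scaling and with single libraries. It was 70 with the scaling of DESeq2, 66 with upper quartile scaling and between 42 and 77 with 1 library left out. With both libraries numbered 3 left out, a choice made after seeing the data, it was 67 of 82. The median was then -0.083, where that of all genes tested was 0.0015. With libraries scaled by their total counts alone the count below 0 was 37 of 82, with a median of 0.011 where that of all genes tested was 0.084. The median of the members thus lay below that of all genes tested under this scaling as in the main fit. Without il26KO GF replicate 3 it was 42 of 82, with a median of -0.0010, where 51.1% of all genes tested were below 0.

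**Figure D1:**
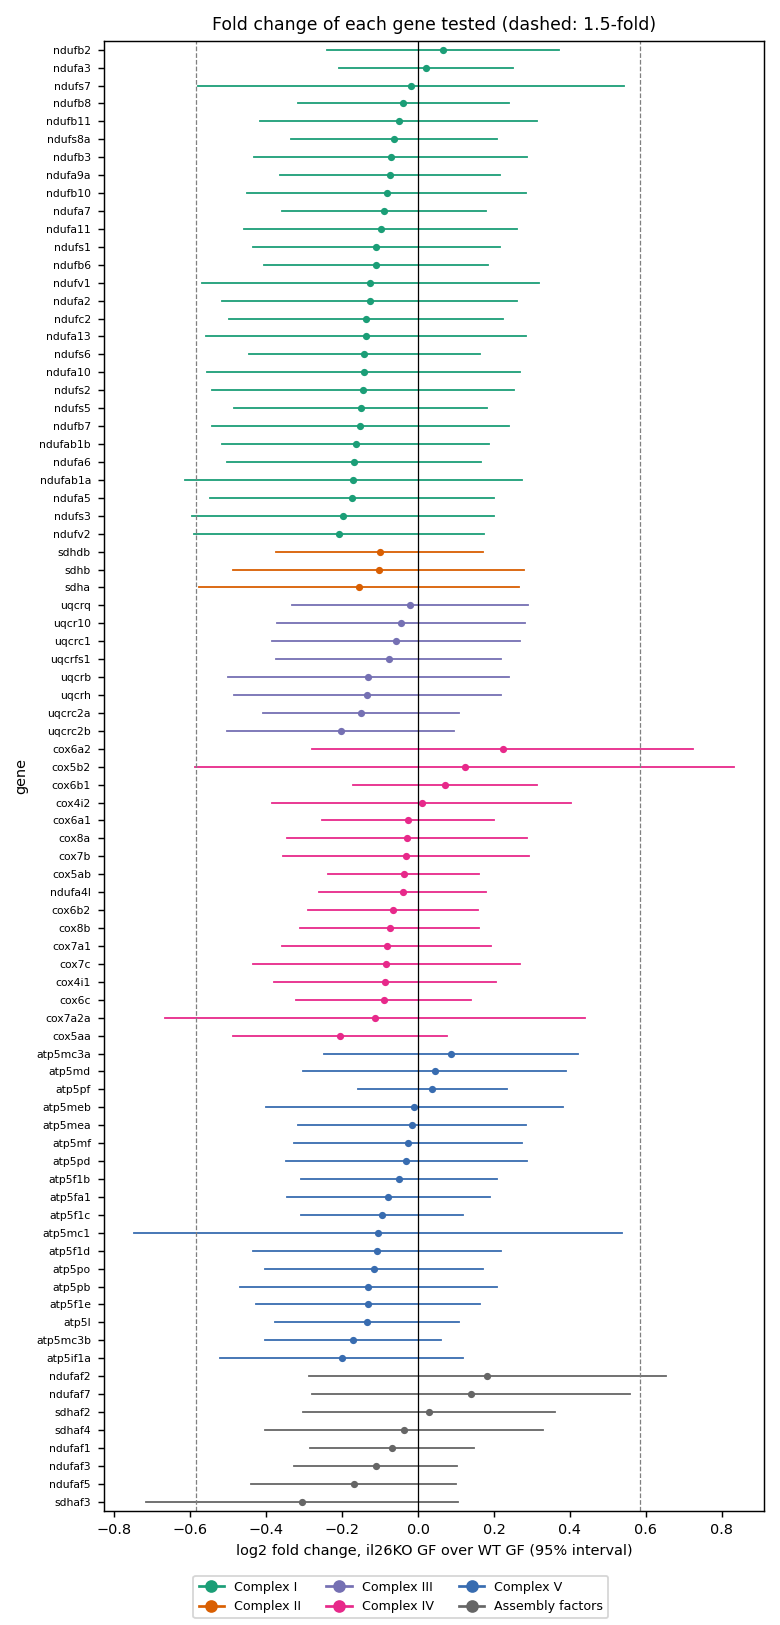
Log2 fold change of the 82 members tested, il26KO GF over WT GF (x axis, points), with the 95% interval (lines), coloured by complex; dashed lines mark 1.5-fold in either direction. All 82 intervals contain 0, and 73 lie between the dashed lines.

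Complex I, the NADH dehydrogenase, takes electrons from NADH at the tip of its hydrophilic arm. Of its 36 members 28 were tested, with a median log2 fold change of -0.13, 26 below 0 and 2 above. *ndufv1*, which encodes the subunit that binds FMN and oxidises NADH, had 425, 398 and 289 CPM in il26KO GF replicates 1, 2 and 3, against 450.2, 447 and 316 CPM in WT GF. The groups overlapped, and in both the library numbered 3 was the lowest. For *ndufv1* the log2 fold change was -0.13 (SE 0.19, unadjusted p = 0.527, 95% interval -0.57 to 0.32). *ndufs1*, which encodes the large iron-sulfur protein beside it, had 264, 255 and 211 CPM in il26KO GF and 289, 278 and 220.4 CPM in WT GF (log2 fold change -0.11, SE 0.14). *ndufv2*, the other iron-sulfur protein at the NADH site, had the most negative estimate of the complex, -0.21 (SE 0.16, unadjusted p = 0.240). The 6 tested members of the NADH-oxidising module had a median log2 fold change of -0.13, the 7 of the ubiquinone-binding module one of -0.14, and the 13 of the membrane arm one of -0.099.

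Complex II, succinate dehydrogenase, is the one complex that also works in the citric acid cycle and has no subunit from mitochondrial DNA. *sdha*, its flavoprotein, had 499, 486 and 394 CPM in il26KO GF and 598, 553 and 384 CPM in WT GF. WT GF thus held both the highest and the lowest library, and the log2 fold change of *sdha* was -0.16 (SE 0.18, unadjusted p = 0.416). *sdhb*, the iron-sulfur protein, had 256, 284 and 205 CPM in il26KO GF, against 298, 285 and 218 CPM in WT GF. The membrane anchor *sdhdb* had 114, 109 and 93.0 CPM in il26KO GF, against 123, 114 and 103 CPM in WT GF. These 3 were the members of complex II that were tested.

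Complex III hands electrons from ubiquinol to cytochrome c, and all 8 members were tested. Each had a log2 fold change below 0, between -0.20 and -0.020. *uqcrfs1*, the Rieske iron-sulfur protein, had 204, 217 and 169.8 CPM in il26KO GF and 209.6, 228 and 186 CPM in WT GF, and *uqcrc1*, a core protein, had 108, 109 and 84.4 CPM in il26KO GF and 107, 116 and 91.3 CPM in WT GF. The other core protein comes from a pair of genes that behaved unequally across libraries. *uqcrc2b* had 161, 159.8 and 131 CPM in il26KO GF and 179, 189.5 and 151 CPM in WT GF (log2 fold change -0.20, SE 0.13, unadjusted p = 0.153). *uqcrc2a* had 244, 261 and 271 CPM in il26KO GF and 310.0, 301 and 250.5 CPM in WT GF, so that its highest il26KO GF library was the one numbered 3. *uqcrc2b* took 39.7%, 38.0% and 32.6% of the counts of the pair in il26KO GF, and 36.6%, 38.6% and 37.7% in WT GF.

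Complex IV, cytochrome c oxidase, reduces oxygen, and its members include most of the isoforms. Of the 19 members 17 were tested, with a median log2 fold change of -0.041. *cox4i1*, the common form of subunit 4, had 528, 489.6 and 433 CPM in il26KO GF, against 545, 551 and 443 CPM in WT GF. *cox4i2*, whose mammalian counterpart serves oxygen sensing in the lung, had 5.90, 4.77 and 5.53 CPM in il26KO GF, against 4.39, 5.82 and 5.67 CPM in WT GF, or between 0.799% and 1.26% of the counts of the pair in the 6 libraries. The member with the most positive estimate of all 82 was *cox6a2*, the counterpart of the mammalian muscle form of subunit 6A. It had 37.8, 22.5 and 39.5 CPM in il26KO GF, against 32.2, 26.7 and 26.0 CPM in WT GF (log2 fold change 0.22, SE 0.21, unadjusted p = 0.333). One il26KO GF library, replicate 2, was below every WT GF library and the others were above every one. Without that library the log2 fold change of *cox6a2* was 0.45 (unadjusted p = 0.0113, adjusted p = 0.998 from edgeR), and 2.03% of all genes tested were then higher at an unadjusted p-value under 0.05. For *cox6a2* the estimate was 0.12 without il26KO GF replicate 1, 0.075 without il26KO GF replicate 3 and 0.0063 without both libraries numbered 3. *cox6a1*, the common form, had 422, 418 and 383 CPM in il26KO GF, against 438, 426 and 382 CPM in WT GF.

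Subunit 5A is encoded by a pair of genes. *cox5aa* had 268, 267 and 247 CPM in il26KO GF, against 335, 313 and 254 CPM in WT GF (log2 fold change -0.21, SE 0.12, unadjusted p = 0.129). The 3 il26KO GF libraries lay within a narrow range, and WT GF replicate 3 was below 2 of them. Without WT GF replicate 3 the log2 fold change of *cox5aa* was -0.31 (unadjusted p = 0.0153, adjusted p = 0.379 from edgeR), and without WT GF replicate 1 it was -0.12 (unadjusted p = 0.401). Its partner *cox5ab* differed little among the 6 libraries, with 191, 181 and 176 CPM in il26KO GF and 192, 189 and 181 CPM in WT GF. *cox5ab* held 41.6%, 40.4% and 41.6% of the counts of the pair in il26KO GF, against 36.5%, 37.7% and 41.6% in WT GF. For subunit 8, *cox8b* held between 62.8% and 67.5% of the counts of *cox8a* and *cox8b* in il26KO GF and between 63.4% and 67.6% in WT GF. *ndufa4l*, related to a protein named for complex I but found in complex IV, had 257, 261 and 287 CPM in il26KO GF, against 289, 279 and 259.7 CPM in WT GF. The positive estimates included *cox6b1*, another subunit of complex IV, at 0.072 (SE 0.10).

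Complex V makes ATP, and of its 19 members 18 were tested, with a median log2 fold change of -0.087. *atp5f1b*, which encodes the catalytic beta subunit, had 2537, 2407 and 2204 CPM in il26KO GF, against 2612, 2575 and 2212 CPM in WT GF (log2 fold change -0.050, SE 0.11, 95% interval -0.31 to 0.21). *atp5fa1*, the alpha subunit, had 2296, 2222 and 2060.0 CPM in il26KO GF, against 2478, 2448 and 2021 CPM in WT GF. These 2 genes with the other 3 of the F1 part had log2 fold changes between -0.13 and -0.050. *atp5if1a*, which encodes the inhibitor that holds back ATP hydrolysis, had 101, 105 and 91.2 CPM in il26KO GF, against 125, 124 and 92.6 CPM in WT GF. The estimate for this gene was -0.20 (SE 0.14, unadjusted p = 0.182), and without WT GF replicate 3 it was -0.33 (unadjusted p = 0.0161, adjusted p = 0.381 from edgeR). It was -0.12 without WT GF replicate 1 and -0.13 without WT GF replicate 2.

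Subunit c, which forms the rotating ring of the ATP synthase, is encoded by several genes whose mature proteins are nearly the same, so reads could have been split between copies. *atp5mc3b* had 948, 998 and 1053 CPM in il26KO GF, against 1214, 1116 and 1047 CPM in WT GF (log2 fold change -0.17, SE 0.099, unadjusted p = 0.125). *atp5mc1* had 336, 323 and 178 CPM in il26KO GF, against 354, 332 and 215 CPM in WT GF. Its libraries numbered 3 stood well below the others in both groups, and its 95% interval, -0.75 to 0.54, reached beyond 1.5-fold on the negative side. *atp5mc3a* had 175, 208 and 144 CPM in il26KO GF, against 165, 177 and 155 CPM in WT GF. Of the counts of the 3 genes, *atp5mc1* held 23.0%, 21.1% and 13.0% in il26KO GF, and 20.4%, 20.4% and 15.2% in WT GF.

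**Figure D2:**
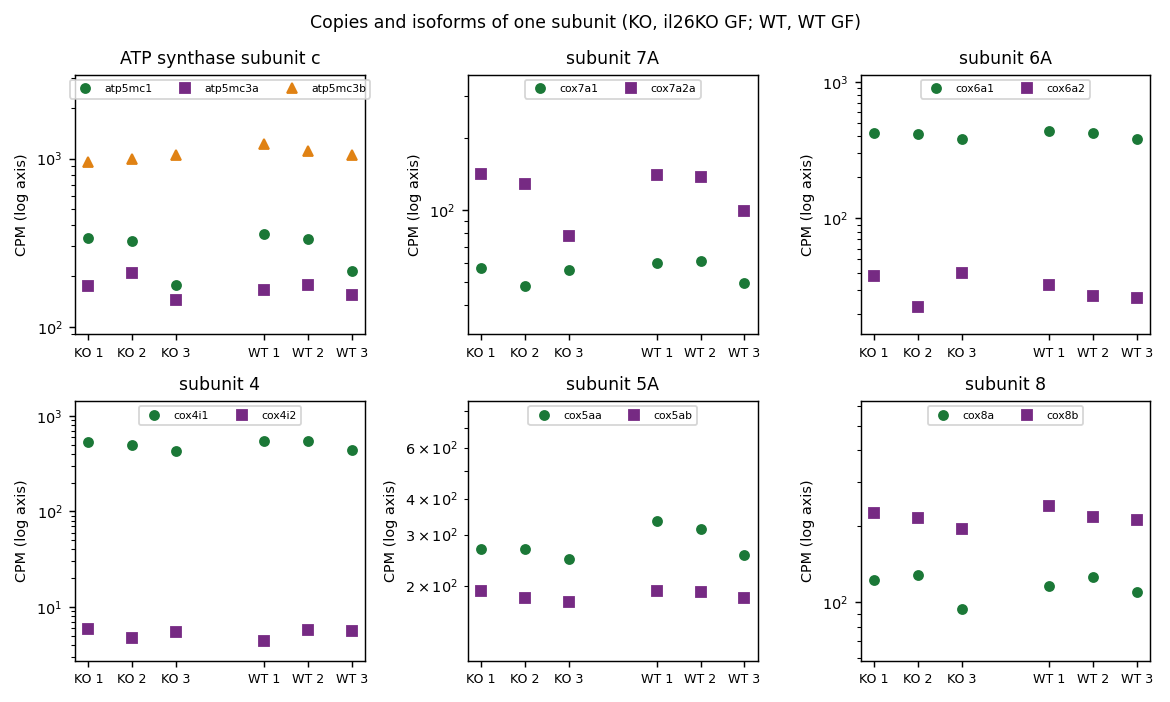
CPM (log y axis) of gene copies and isoforms that encode one subunit, in il26KO GF libraries 1 to 3 (KO, left) and WT GF libraries 1 to 3 (WT, right); each point is a library. *atp5mc1* and *cox7a2a* were lowest in the library numbered 3 of each group, at 178 and 77.7 CPM in il26KO GF and 215 and 98.4 CPM in WT GF, while *cox5ab* stayed between 176 and 192 CPM.

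The 8 assembly factors act on complexes I and II. *ndufaf3*, a complex I assembly factor, had 48.6, 48.0 and 51.4 CPM in il26KO GF, against 57.2, 53.6 and 49.1 CPM in WT GF. *sdhaf3*, which helps to mature the iron-sulfur subunit of complex II, had 11.6, 11.02 and 7.79 CPM in il26KO GF, against 12.6, 14.0 and 10.9 CPM in WT GF, and its log2 fold change of -0.31 (SE 0.18) was the most negative among the 82. *ndufaf2* had 8.24 CPM in il26KO GF replicate 1, which rests on the shallowest library, and between 5.12 and 5.98 CPM in the other 5. *ndufaf7*, a methyltransferase that acts on complex I, had 5.41, 4.52 and 5.41 CPM in il26KO GF, against 4.89, 5.22 and 3.75 CPM in WT GF (log2 fold change 0.14, SE 0.18). Of the 8 factors 3 had a positive and 5 a negative estimate.

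Summed over the members of each complex, the difference of il26KO GF from WT GF was between -8.78% and -4.13% of the WT GF mean, and the groups overlapped for every complex. The sizes of these differences rest on the scaling, and for complexes IV and V so do the signs. With total counts only, the difference was -0.657% for complex I, -1.99% for complex II, -1.09% for complex III and 1.06% for complex V, and that of complex IV was also above 0. Complex I summed to 2714 ± 368 CPM in il26KO GF and 2934 ± 428 CPM in WT GF (SD, n = 3 each). Complex II summed to 814 ± 106 CPM in il26KO GF and 892 ± 165 CPM in WT GF. Complex III summed to 1228 ± 121 CPM in il26KO GF and 1330.2 ± 153 CPM in WT GF. Each of these differences was smaller than 1 SD of either group. Complex IV summed to 3137 ± 225 CPM in il26KO GF and 3273 ± 279 CPM in WT GF, and complex V to 9317 ± 597 CPM in il26KO GF and 9862 ± 1017 CPM in WT GF. The 8 assembly factors summed to 136 ± 3.64 CPM in il26KO GF and 145 ± 11.9 CPM in WT GF. Set against the WT GF library of the same number, the il26KO GF library was lower in 3 of 3 pairs for each of the 5 complexes, for complex I at 2988, 2859 and 2296 CPM in il26KO GF, against 3226, 3132 and 2443 CPM in WT GF. This too rests on the scaling: as a share of total counts, all members together took 1.99%, 1.84% and 1.56% in il26KO GF, against 1.90%, 1.76% and 1.68% in WT GF, so that il26KO GF was the higher in pairs 1 and 2.

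**Figure D3:**
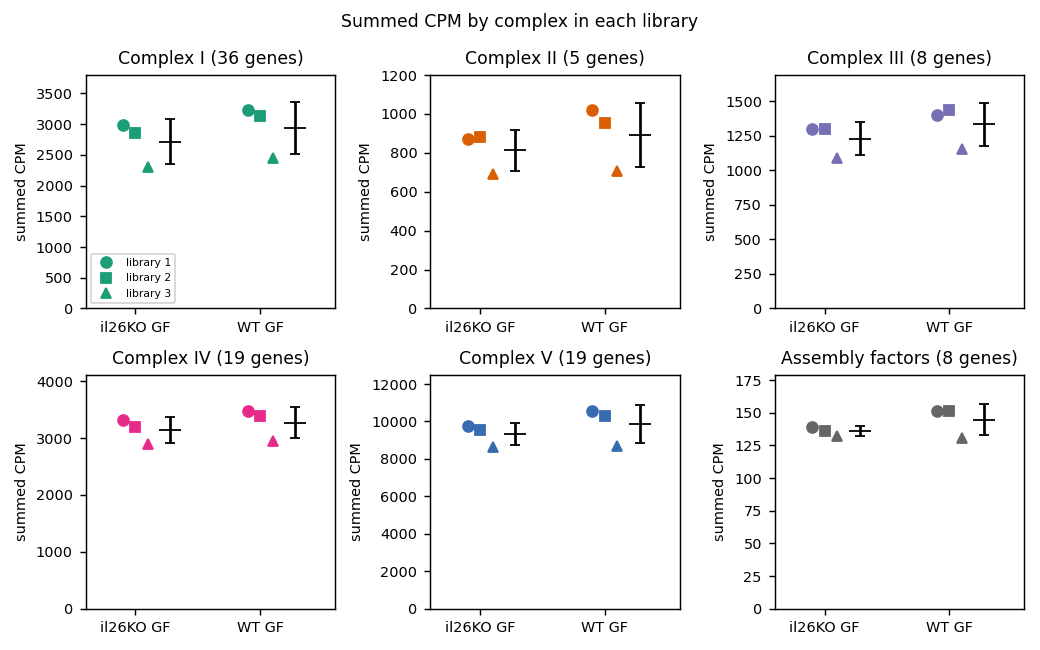
Summed CPM (y axis, from 0) of all members of each complex and of the assembly factors in il26KO GF (left) and WT GF (right); each symbol is a library, and the bar beside them is the mean with the SD of 3 libraries. The triangle, the library numbered 3, is the lowest of its group in each panel; for complex I it is at 2296 CPM in il26KO GF and 2443 CPM in WT GF.

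One difference among the libraries lay within the groups and recurred in both. It was noticed in the values and is given as a description, without a test. In il26KO GF replicate 3 and WT GF replicate 3, the respiratory chain genes were low together. These libraries were the 2 lowest of the 6 for 69 of the 82 members (84.1%), where the same held for 12% of all genes tested. The libraries numbered 1 or 2 were the 2 lowest for 0 of the 82 members, against 7.21% and 7.69% of all genes tested. The number of such members was 64 with upper quartile scaling and 52 with total counts alone, where 10.7% and 8.22% of all genes tested had this order. What libraries with the same number have in common is not stated in the labels.

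Measured as the log2 ratio of library 3 to the mean of libraries 1 and 2 of its group, the median over the 82 members was -0.29 in il26KO GF and -0.30 in WT GF, against 0.0014 and -0.0037 over all genes tested. Both libraries numbered 3 were the lowest for all 28 tested members of complex I, all 3 of complex II, 7 of 8 of complex III, 12 of 17 of complex IV and 17 of 18 of complex V, but for 2 of the 8 assembly factors. The median ratio of complex I was -0.35 in il26KO GF and -0.36 in WT GF. The lowest ratio in both groups belonged to *atp5mc1*, at -0.89 in il26KO GF and -0.67 in WT GF. Next in il26KO GF was *cox7a2a*, the common form of subunit 7A, at -0.79 in il26KO GF and -0.49 in WT GF, and next in WT GF was *sdha*, at -0.32 in il26KO GF and -0.58 in WT GF.

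The 7 subunit genes outside this order were *cox4i2*, *cox5b2*, *cox6a2*, *cox7a1* and *ndufa4l* of complex IV, *uqcrc2a* of complex III and *atp5mc3b* of complex V. *cox7a1*, the counterpart of the mammalian muscle form of subunit 7A, had 57.2, 48.1 and 55.8 CPM in il26KO GF, against 60.0, 60.9 and 49.5 CPM in WT GF. *cox7a2a* had 141, 128 and 77.7 CPM in il26KO GF, against 139, 137 and 98.4 CPM in WT GF. The share of *cox7a1* in the counts of these 2 genes was 41.8% in il26KO GF replicate 3 (95% exact binomial interval 39.7 to 43.9, counting error only), against 28.8% and 27.4% in replicates 1 and 2, and 33.5% in WT GF replicate 3, against 30.1% and 30.8% in replicates 1 and 2.

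**Figure D4:**
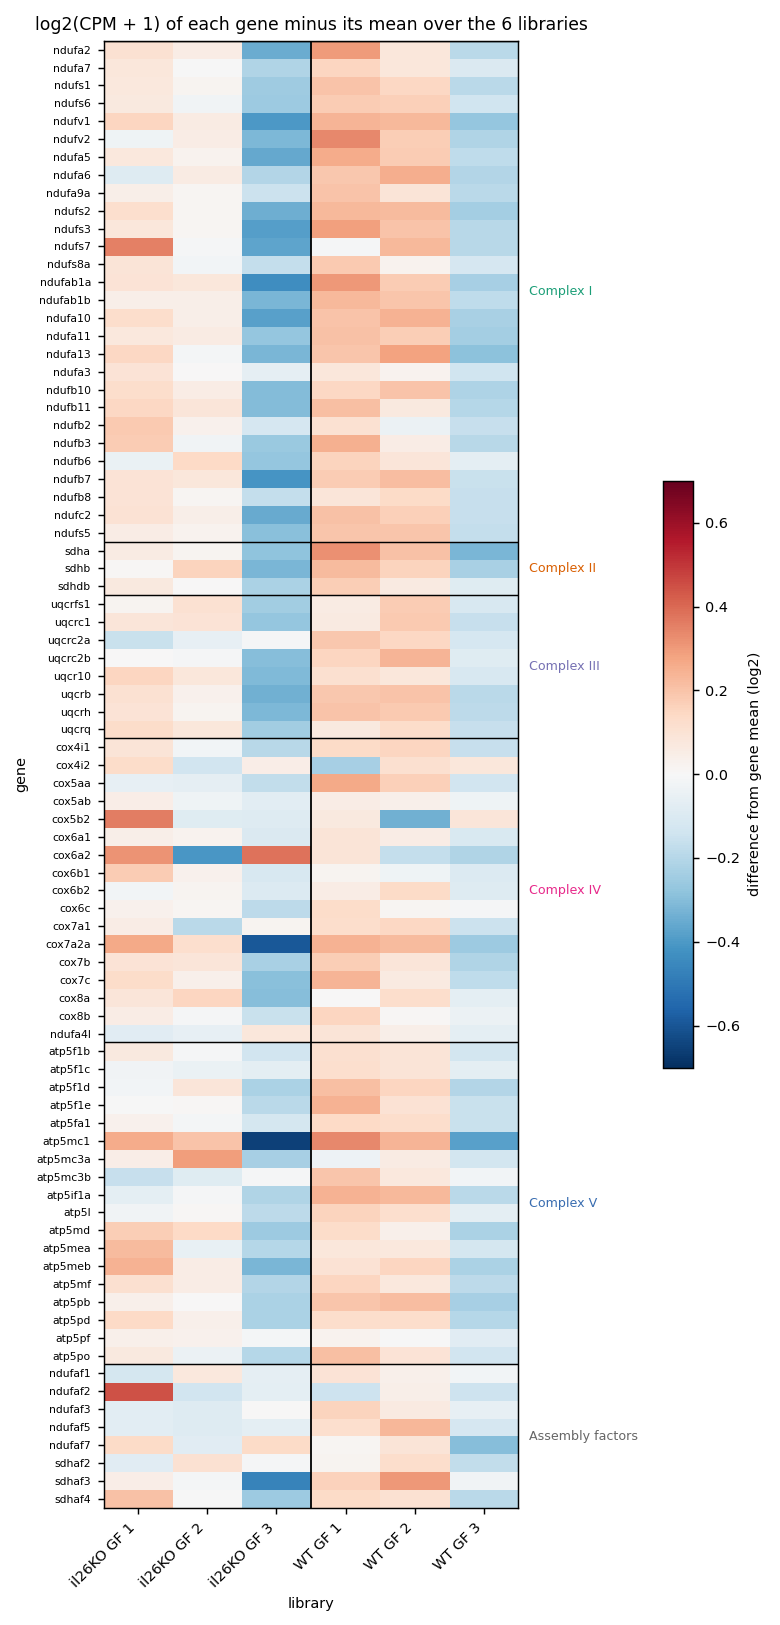
Difference of log2(CPM + 1) from the mean of each gene over the 6 libraries (colour, red above and blue below the mean) for the 82 members tested, in rows by complex, with il26KO GF libraries left of WT GF libraries. The columns of library 3 are mostly blue through complexes I, II, III and V in both groups; the median over the members is -0.22 in il26KO GF replicate 3 and -0.16 in WT GF replicate 3.

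**Figure D5:**
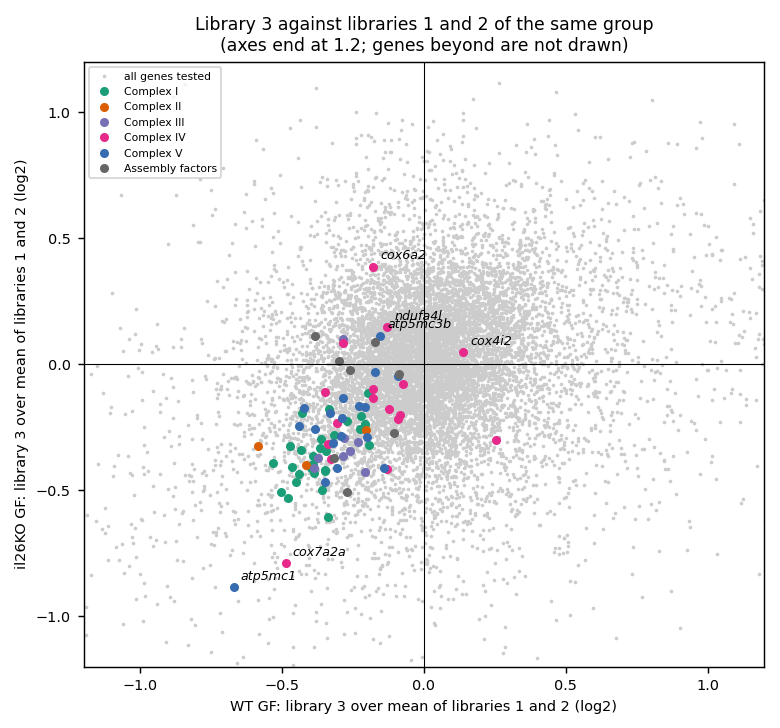
Log2 ratio of library 3 to the mean of libraries 1 and 2 in WT GF (x axis) and il26KO GF (y axis), with 0.5 CPM added to each level, for the members (coloured by complex) and all genes tested (grey). For 72 of 82 members both ratios were below 0 (87.8%), against 28.9% of all genes tested.

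Other genes of the pathway were taken from lists of symbols. *cyc1*, the cytochrome c1 of complex III, had 306, 311 and 243 CPM in il26KO GF, against 365, 336 and 259 CPM in WT GF. *cycsb*, which encodes cytochrome c, had 127, 136 and 83.8 CPM in il26KO GF, against 125, 145 and 102 CPM in WT GF. Both followed the order of the complexes, lowest in library 3 of each group. The median log2 fold change of the 35 tested assembly factors outside the prefixes was -0.064. All il26KO GF libraries lay above all WT GF libraries for 1 factor and below for 4, against 4.81% and 4.83% of all genes tested. At an unadjusted p-value under 0.05, 0 factors were higher and 1 lower, where 3.06% of all genes tested were higher and 2.27% lower. The one was *cmc1*, which helps to build complex IV, with 29.6, 33.9 and 32.2 CPM in il26KO GF, against 37.5, 39.3 and 39.0 CPM in WT GF (log2 fold change -0.27, SE 0.086, adjusted p = 0.725 from edgeR). *surf1*, another complex IV factor, had 27.7, 24.7 and 18.0 CPM in il26KO GF, against 28.4, 26.9 and 18.9 CPM in WT GF.

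Of 15 genes of the citric acid cycle and pyruvate dehydrogenase that were tested, 0 were higher and 0 lower at an unadjusted p-value under 0.05, and the median log2 fold change was -0.096. The estimates were below 0 for 13 of these 15 genes. *cs*, citrate synthase, the first enzyme of the cycle, did not have the order of the respiratory chain: it had 281, 307 and 296 CPM in il26KO GF, against 278, 278 and 322 CPM in WT GF. Of 11 tested regulators of mitochondrial gene expression, 0 passed in either direction, with a median of 0.026. *nrf1*, a transcription factor of many respiratory genes, had 25.7, 23.2 and 29.5 CPM in il26KO GF, against 27.1, 22.6 and 27.2 CPM in WT GF, and *tfam*, which packages and transcribes mitochondrial DNA, had 22.3, 16.8 and 16.9 CPM in il26KO GF, against 18.0, 19.6 and 19.6 CPM in WT GF. Of 13 listed subunits encoded by mitochondrial DNA, 0 were found in the count table under the symbols used, so they were not analysed here.

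Levels of other cell types moved among the libraries too, and their part in the values above was not tested. The summed level of 32 skeletal muscle markers was 2906, 4569 and 3059 CPM in il26KO GF replicates 1, 2 and 3, against 1891, 1714 and 3404 CPM in WT GF. Of the 25 tested, 15 were higher and 0 lower at an unadjusted p-value under 0.05, against 3.06% and 2.27% of all genes tested. This direction was known before the list was chosen. The estimates were above 0 for 20 of the 25 and below 0 for 5. Of the 32 markers, 0 were at 0 in every library. However, *ckma*, *mylpfa*, *smyhc1*, *casq1a*, *pvalb2*, *ldb3a* and *mb* had at most 9 counts in any library and were not tested. The library with the most muscle signal, il26KO GF replicate 2, had the lowest *cox6a2* of all. WT GF replicate 3, with the most muscle signal of its group, had 26.0 CPM of *cox6a2*. However, il26KO GF replicates 1 and 3 had more muscle signal than WT GF replicates 1 and 2. They also had more *cox6a2* (37.8 and 39.5 CPM, against 32.2 and 26.7 CPM). Whether muscle signal and *cox6a2* go together was not tested. The 18 enterocyte markers summed to 81946, 86010 and 88124 CPM in il26KO GF, against 103269, 97155 and 81970 CPM in WT GF. By this sum, library 3 was the lowest of WT GF and the highest of il26KO GF. The sum leans on genes with many reads, and *apobb.1* alone had 30976, 32912 and 35146 CPM in il26KO GF. Taken singly, 10 of the 18 markers were lower in il26KO GF library 3 than in the mean of libraries 1 and 2 (median log2 ratio -0.099). In WT GF it was 15 of 18 (median -0.27). Exocrine pancreas markers (22 genes) summed to between 44853 and 61112 CPM in il26KO GF and between 51551 and 73288 CPM in WT GF, with library 3 again the highest of il26KO GF. Hepatocyte markers (19 genes) summed to between 11706 and 19503 CPM in il26KO GF and between 8139 and 22565 CPM in WT GF. The summed levels of erythrocyte, skin, smooth muscle, neuron and leukocyte markers overlapped between the groups. Log2 fold changes were below 0 for 14 of 18 tested enterocyte and 19 of 21 exocrine pancreas markers, against 50.4% of all genes tested. They were below 0 for 5 of 6 smooth muscle, 12 of 13 neuron and 8 of 9 leukocyte markers. For hepatocyte, erythrocyte and skin markers it was 9 of 18, 6 of 12 and 5 of 12.

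The 13 remaining members did not pass the filter, and their counts say little. No library had more than 5 counts of any of them, where every tested member had at least 19 counts in every library. In 5 cases a partner or related gene was tested: *ndufs8b* beside *ndufs8a*, *sdhda* beside *sdhdb*, *ndufa4* beside *ndufa4l*, *cox7a2l* beside *cox7a2a* and *atp5if1b* beside *atp5if1a*. *cox7a2l* encodes a protein related to subunit 7A, so *cox7a2a* is its relative and not a second copy of it. The remaining 8 were *ndufa1*, *ndufa8*, *ndufa12*, *ndufb4*, *ndufb5*, *ndufb9*, *ndufs4* and *sdhc*. Their counterparts in other vertebrates are standing parts of complexes I and II, so a listing at or near 0 is not read here as absence of the RNA. Over the whole table, 21.1% of symbols had at most 5 counts in every library, against 13.7% of the members. The annotation used for counting is not given in the sources used here, and why these genes had few reads was not tested.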

How the data were processed

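Bulk RNA-seq of pooled guts from 3 il26KO GF and 3 WT GF replicates was analysed. The authors sequenced stranded mRNA libraries with paired-end reads, used danRer11 as the genome and deposited unnormalized read counts for gene symbols. The aligner, counting tool, annotation and strand setting are not given in the sources used here, so counts of paralogs and overlapping genes are uncertain. Columns were matched to samples by library name, with 0 columns left over.

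Genes were kept by filterByExpr (11062 of 15419), scaled by TMM, and the genotypes compared with the quasi-likelihood test of edgeR, adjusted by Benjamini-Hochberg over every gene tested (edgeR 4.0.16, limma 3.58.1, DESeq2 1.42.0, R 4.3.3). Standard errors were derived from F statistics. The script was tested on simulated data. Members, lists and the numbered-library description were chosen with earlier results of these data known. Named genes were the 5 members with the smallest p-value in each direction, 8 core catalytic subunits, the member with most reads in each complex, 6 isoform families and members that failed the filter; *ndufv2*, *cox5ab*, *atp5mc1*, *uqcrc2a*'s share, *cs* and other pathway genes were named after their values were seen. Alternatives were other scalings, filters, DESeq2's test, a replicate block, each library left out and, added later, both libraries numbered 3 left out. Sequences, gene lengths and promoter motifs were not used here. Of the 95 symbols, 93 matched a RefSeq gene symbol of the GRCz12tu assembly and 2 a synonym, *ndufa4* and *ndufa4l*; no coordinates are given because the build differs.

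Replicate numbers come from the sample titles. Across genes, same-numbered libraries deviated together from their group means, with correlations of 0.24, 0.21 and 0.36 (log2 of CPM + 1), or 0.18, 0.096 and 0.30 with a prior count of 2. Libraries of different numbers had correlations between -0.37 and 0.18 on the first measure. The highest of these, for il26KO GF replicate 2 and WT GF replicate 1, was close to that of the pair numbered 2. The deviations of the 3 libraries of a group sum to 0 for each gene. Positive correlations of the same number thus push those of different numbers below 0, so the contrast between them is partly built in. On the first measure the numbers were taken as pairs, but only in the alternative fit with a replicate block and where sums were compared by number. The main fit used genotype only, so its p-values, standard errors and intervals are unpaired. No pair of replicates was a duplicate (chi-square test of counts).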

Additional observations from a re-analysis of the deposited data

How the results depend on the processing

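No member passed an adjusted p-value under 0.05 under any alternative run. At an unadjusted p-value under 0.05 the count of lower members was 0 in the main fit. With the replicate block it was 3 (*sdhaf3*, *ndufs3* and *uqcrc2b*, adjusted p between 0.652 and 0.698 from edgeR), where 3.34% of all genes tested were lower. With both libraries numbered 3 left out, a choice made after seeing the data, it was 4 (*atp5if1a*, *atp5mc3b*, *cox5aa* and *uqcrc2a*). In that fit 564 of all 11090 genes tested were lower. With 1 library left out it was between 0 and 7, the 7 without WT GF replicate 3, where 4.34% of all genes tested were lower. The count of higher members, 0, was between 0 and 1 with one library left out. The replicate block changed no other call among the members. Of 392 estimates of 28 named genes under the alternatives, 381 stayed on their side of an unadjusted p of 0.05, 11 passed it with their direction kept and 0 lost it; 30 differed in sign without passing in either fit. The difference of the summed assembly factors, il26KO GF from WT GF, was 0.330% with total counts only, against -6.06%. Over all genes, the count at an adjusted p-value under 0.05, 1, was 4 with upper quartile scaling, 2 with total counts only, 4 with at least 1 count in any library, 52 with DESeq2's test, 15 with the replicate block, 0 with both libraries numbered 3 left out and between 0 and 3 with one library left out. Higher genes at an unadjusted p numbered 710 with both libraries numbered 3 left out and between 227 and 649 with one left out, against 338; lower genes numbered 108 with total counts only, 564 with both libraries numbered 3 left out and between 183 and 484 with one left out, against 251. With 2 libraries in a group, the spread was pooled over both groups.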
